A study of Mus musculus with 2 samples.

Results

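Processed pseudogenes are copies of messenger RNAs that were reverse transcribed and inserted back into the genome, and 253 of the 9940 genes that the annotation types this way carried reads in the mouse adrenal gland. A gene was counted as a member when all of its transcripts are typed processed pseudogene and its expected count, averaged over both gene tables, was at least 100. The members were chosen by these measured counts, so their levels in the gene tables are given as a description, with no test. They make up 2.55% of the processed pseudogenes, among 55536 annotated genes in all. A further 1994 processed pseudogenes had some count below that limit, and 7693 stood at 0 in both gene tables.

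A processed pseudogene has lost its parent's introns and usually its promoter, so it is commonly regarded as silent unless it landed near an active promoter or inside a transcribed gene. Highly expressed housekeeping genes, above all those of ribosomal proteins and of Gapdh, have left many such copies in mammalian genomes. A recent copy still spells nearly the same sequence as its parent, so a short read of the parent's RNA can match the copy equally well. The read count of a copy therefore depends on how a quantification divides reads that match several places.

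The tissue was the whole adrenal gland of 2 adult female B6CASTF1/J mice of 8 to 10 months, an F1 hybrid of the C57BL/6J and CAST/EiJ lines, and total RNA (300 ng per library) was sequenced from each with spike-in RNA added. The animals form 1 group with no treatment and no control group, replicate 1 being animal number 1 and replicate 2 animal number 3. The labels give both libraries the same donor code, so they were taken as separate animals on the strength of the animal numbers. Each library was quantified by its authors in 2 ways, by alignment to the transcriptome (the gene tables, which chose the members) and by matching reads to a transcript index (summed here per gene). The comparison of both quantifications and of both animals is what the design allows, and with 1 library per animal no p-value was computed.

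Depth over annotated genes was 40362256 expected counts (replicate 1) and 34235715 (replicate 2). Cortex markers were high in both animals, with Star at 6319 and 5650 TPM (transcript abundance scaled for length and depth), and so was the medulla marker Th at 363 and 296 TPM. The kidney markers Umod and Slc12a1 had no count, and the liver marker Alb stood at 5.56 and 18.7 TPM. The part of any other tissue in the members' values was not tested.

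All 253 members matched an annotated protein-coding transcript, called the parent here (best BLAST score). The median identity was 99.5% over a median of 100% of the member's length. Of the members, 169 (66.8%) matched at 99% identity or more, 47 were identical to the parent over their whole length, and 8 were below 95%. The other 9687 processed pseudogenes found a parent in 9204 cases, with a median identity of 88.7%, and 4.47% of these matched at 99% or more. Members and other processed pseudogenes thus overlapped in identity, but the members lay at its upper end.

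**Figure D1:**
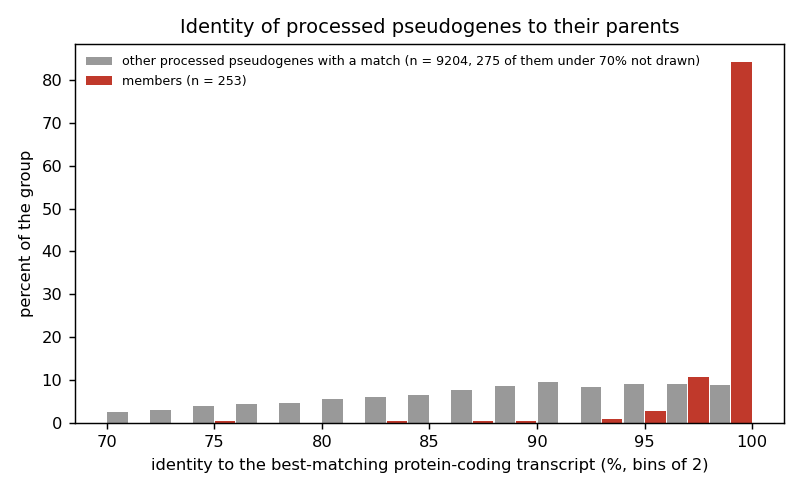
Percent of members (red) and of the other processed pseudogenes with a match (grey) in bins of 2 percentage points of identity to the best-matching protein-coding transcript. Of the 253 members, 213 fall between 98% and 100%, where 802 of 9204 others lie.

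Among processed pseudogenes with at least 99% identity and a parent at 100 TPM or more, 82 of 189 were members. Where identity was as high but the parent was below 10 TPM, 12 of 151 were. Where the parent was at 100 TPM or more but identity was under 95%, 3 of 2758 were. These counts describe the choice of members and were not tested.

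The sequences show how little separates many members from their parents. They are the coding-strand letters of GENCODE M21 transcripts (mm10), shown because they belong to the members at the extremes of the comparison of quantifications below, and capitals mark the bases at which copy and parent differ. Gm12338 (chr11:75599763-75599954, minus strand) is a copy of Cox7c, a subunit of cytochrome c oxidase. Its 192 bases equal the whole coding part of Cox7c with no difference, so 1 line stands for both.

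Gm12338 and Cox7c: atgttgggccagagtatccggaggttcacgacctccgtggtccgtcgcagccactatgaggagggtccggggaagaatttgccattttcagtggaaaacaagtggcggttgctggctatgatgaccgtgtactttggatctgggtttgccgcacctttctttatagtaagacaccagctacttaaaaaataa

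Gm7336 (chromosome 7, plus strand) copies Gapdh, the glycolytic glyceraldehyde-3-phosphate dehydrogenase. Over the 1002 coding bases the letters of copy and parent are the same, and their 1232-base alignment holds 1 differing base and 2 gap columns outside the coding part. The first 150 coding bases, at chr7:51746697-51746846 in the copy, read as follows.

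Gm7336 and Gapdh: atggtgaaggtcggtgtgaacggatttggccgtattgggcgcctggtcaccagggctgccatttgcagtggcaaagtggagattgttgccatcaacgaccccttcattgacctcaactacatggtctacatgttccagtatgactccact

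Oaz1-ps (minus strand of chromosome 17, window chr17:17345991-17346140) copies Oaz1, the antizyme that limits polyamine synthesis. Its 685 bases differ from Oaz1 at 1 base and 1 gap column, and the first 150 bases hold the differing base.

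Oaz1-ps: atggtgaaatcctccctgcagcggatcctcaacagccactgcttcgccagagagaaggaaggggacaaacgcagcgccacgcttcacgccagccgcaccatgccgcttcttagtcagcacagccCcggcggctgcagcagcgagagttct
Oaz1: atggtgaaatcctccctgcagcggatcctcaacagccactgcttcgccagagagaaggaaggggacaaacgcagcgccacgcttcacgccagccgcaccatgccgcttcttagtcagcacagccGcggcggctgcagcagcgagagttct

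Gm13050 (minus strand of chromosome 4, window chr4:143243083-143243232) copies Eef2, which moves the ribosome along the messenger RNA, and was added after its values were seen as an example with many letters of its own. It differs from Eef2 at 41 of 1345 bases, of which 10 lie in the 150 shown.

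Gm13050: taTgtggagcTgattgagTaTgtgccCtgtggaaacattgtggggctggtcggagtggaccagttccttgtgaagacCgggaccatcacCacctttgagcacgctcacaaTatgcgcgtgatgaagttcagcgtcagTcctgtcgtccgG
Eef2: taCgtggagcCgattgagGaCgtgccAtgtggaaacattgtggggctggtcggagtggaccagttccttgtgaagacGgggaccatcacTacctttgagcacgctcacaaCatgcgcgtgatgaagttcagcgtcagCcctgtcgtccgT

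Each member was also broken into all of its 31-base words, and the share of words found in no other annotated gene was counted (both strands, transcript sequences only). Among members the median share was 7.89%, against 85.7% among the other processed pseudogenes and 98.8% among 11896 protein-coding genes at the same count limit. Of the members, 67 had no word of their own, 73 had up to 10%, 76 had above 10 and up to 30%, and 37 had above 30%. No genome sequence was used, so copies outside the annotation do not enter these shares, and the CAST alleles of the animals do not either.

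Of the 201 parents, 105 are in the gene lists used here and 96 are not. Copies of cytosolic ribosomal protein genes, the structural proteins of the ribosome, made up 76 members from 47 parents and held 42.5% and 44.9% of the members' counts in replicates 1 and 2. Copies of chaperones, which fold proteins, numbered 9 and held 12.7% and 8.71%. Translation factors had 12 members with 7.28% and 7.50%. Glycolytic enzymes and the ubiquitin and proteasome system had 10 members each, chromatin and HMG genes 9, nuclear-encoded respiratory chain genes 8, and RNA-binding proteins and cytoskeleton genes 7 each. Ferritin and the signalling adaptors had 1 member each, and 103 members had parents outside these lists. Members had a parent in the lists in 59.3% of cases, and all processed pseudogenes in 46.0%. Steroidogenic and sterol genes, which mark the cortex, had 14 processed pseudogenes and no member, and none of the 37 copies matched to mitochondrially encoded genes was a member. At the share of 2.55% among all processed pseudogenes, sets of this size would hold about 1 member or none.

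The share of members among the processed pseudogenes of a family, against 2.55% of all processed pseudogenes, was 3.23% for ribosomal protein copies (76 of 2351), 5.48% for translation factors (12 of 219), 2.92% for glycolysis (10 of 343) and 2.21% for chromatin and HMG (9 of 407). Gapdh alone had 232 processed pseudogenes in the annotation, of which 6 were members.

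The members held 206586 of the annotated genes' expected counts in replicate 1, which is 0.512% (95% Wilson interval 0.510 to 0.514%, counting error only), and 164351 in replicate 2, which is 0.480% (0.478 to 0.482%). That was 92.7% and 91.4% of the counts of all processed pseudogenes. In the index tables the same members held 0.342% (0.341 to 0.344%) and 0.313% (0.311 to 0.315%). The alignment-based counts chose the members, so a lower share in the index tables is partly set by the choice.

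Gm15459, a copy of the constitutive chaperone Hspa8, led at 18264 counts in replicate 1 and 8653 in the other animal, a level of 255 and 142 TPM. It was followed by Vcp-rs, a copy of the ATPase Vcp that extracts proteins for degradation, at 7296 and 6506 counts (81.3 and 85.4 TPM). The other 8 were copies of ribosomal protein genes, of the folding enzyme Ppia and of the growth-related protein Tpt1. These 10 members held 31.70% and 29.03% of all members' counts. Per length, the highest alignment-based level was that of Rps23-ps1, a copy of the small-subunit protein Rps23, at 491 and 448 TPM (469.7 ± 30.6 TPM, SD, n = 2). The median member had 312 counts and 18.2 TPM.

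Just inside the limit stood Gm2058 with a mean count of 101.6, Gm43110 with 101.2 and Gm43587 with 100.4. Just outside it stood AC116841.1 with 98.8, Gm10819 with 98 and Gm10651 with 97.2. Mab21l2 reached a mean count of 401.5 but was left out because only some of its transcripts are typed processed pseudogene.

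The question of which members keep their level when reads are divided differently was addressed by the ratio of index-based to alignment-based TPM, with 0.1 added to both, on the log2 scale and relative to the median of protein-coding genes in the same library. The median ratio of the members was -0.69 in replicate 1 and -0.66 in replicate 2, and the quartiles of the members were -6.18 and -0.01 in replicate 1 and -5.97 and -0.02 in replicate 2. Over all 12639 genes at the count limit the median was 0.00 in both animals, with quartiles of -0.10 and 0.15. Since the alignment-based counts chose the members, a ratio below 0 is partly set by the choice. When either table could choose, 302 processed pseudogenes qualified and their median ratio was -0.31, and when the index table chose (187 genes, 138 of them members) it was 0.11.

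Members were sorted into 3 classes by these ratios, with 33 in none of them. The index table was at least 4-fold lower in both animals for 88 members (34.8%), where it was for 1.42% of all genes at the count limit. It was within 2-fold in both animals for 122 members (48.2%), against 97.1% of all genes. It was at least 2-fold higher in both animals for 10 members (3.95%), against 0.562% of all genes. Among protein-coding genes alone, 0.143% were in the first class and 98.9% in the second. Among the 313 protein-coding genes with no more than 30% of words of their own, 4.79% were in the first class and 83.7% in the second. For the 302 genes chosen by either table the same 3 classes held 29.1%, 41.4% and 18.5%.

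**Figure D2:**
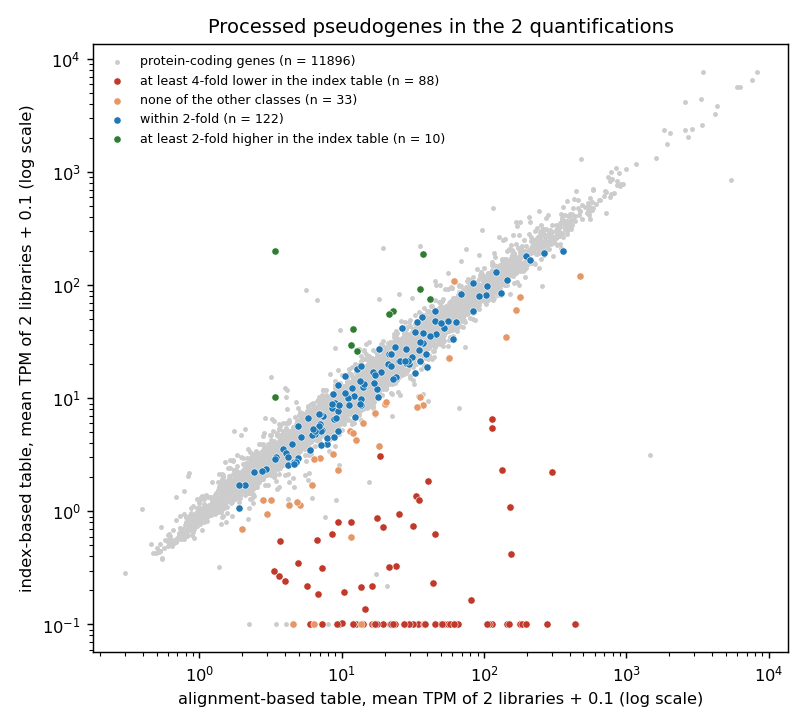
Mean TPM of the 2 libraries plus 0.1 in the alignment-based tables (x axis, log scale) and the index-based tables (y axis, log scale), for 11896 protein-coding genes in grey and the 253 members coloured by class. The 122 members in blue lie along the protein-coding genes, and a row of members lies at the floor of the y axis, where the index table lists them at 0.

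The members lowest in the index table were mostly short or identical copies. Gm12338, the Cox7c copy printed above, had 1645 and 1246 expected counts, a level of 460 and 410 TPM, and no count in either index table, which puts it at least 548-fold and 415-fold lower (limit of 3 counts per library). Tpt1-ps3, identical to the 519 coding bases of Tpt1, had 4748 and 3654 counts (291 and 264 TPM) and was also listed at 0, at least 1583-fold and 1218-fold lower. Gm10221, identical to a stretch of the ATP synthase subunit gene Atp5l, had 187 and 172 TPM against 0. Rpl31-ps8 (parent Rpl31, a large-subunit protein) had 158 and 197 TPM against 0. Gm12481, a copy of Serf2, had 202 and 165 TPM against 0. The remaining 5 of the 10 lowest were Gm47441 (parent Tecr), Gm45660 (Rps19), Gm7329 (Me1), Gm10095 (BC004004) and Gm10443 (Rps28), all listed at 0. In each of these 10 members both animals lay on the same side, with no overlap between the tables. They were ranked by the mean ratio of both animals, so this is largely set by the choice.

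In all, 55 members were listed at 0 in both index tables (under 0.5 estimated reads) and 17 more in 1 of them. By alignment, the counts of the 55 ran from 0 through a median of 312 to 4748 in replicate 1 and from 0 through 288 to 3654 in replicate 2, and their mean was kept at 100 or more by the choice of members. Over all 12639 genes at the count limit, members included, 113 (0.894%) were listed at 0 in both. Among the 11896 protein-coding genes at that limit 9 were. With members listed at 0 placed at 3 counts, the median log2 ratio of counts was -1.03 in replicate 1 and -0.99 in replicate 2.

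Among the abundant members, Gm10123, identical to its stretch of Ppia, the cyclophilin that isomerises proline bonds, fell from 313 and 293 TPM in the alignment tables to 2.99 and 1.301 TPM in the index tables. Rps23-ps1, also identical to its parent, was in between, with 491 and 448 TPM against 137 and 104 TPM. AC133509.1, a copy of the elongation factor Eef1a1, had 42.2 and 38.5 TPM against 1.63 and 1.87 TPM. Gm15387, a copy of the chromatin protein Hmgb1, had 61.2 and 64.9 TPM against 0. Gm7964 (Hnrnpk, an RNA-binding protein), Gm14150 (Tuba1b, an alpha-tubulin), Gm12070 (Gapdh) and Ube2n-ps1 (Ube2n, which conjugates ubiquitin) were at least 4-fold lower in both animals. So was Ftl2-ps, whose best match was Ftl1-ps1, a ferritin light chain sequence.

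Members within 2-fold included most of the highest counts. Gm15459 had 255 and 142 TPM by alignment and 231 and 129 TPM by index. Vcp-rs had 81.3 and 85.4 TPM against 58.5 and 60.5 TPM. Rps2-ps13 (parent Rps2) had 222 and 195 TPM against 177 and 160 TPM, and Rpl3-ps1 (Rpl3) 142 and 147 TPM against 110 and 114 TPM. Rpl28-ps1, with no base that differs from Rpl28, had 356 and 366 TPM against 188 and 216 TPM, the highest mean in the index tables (202.4 ± 19.7 TPM, SD, n = 2). Gm7536, identical to its stretch of Rpl27a, had 255 and 270 TPM against 195 and 190 TPM. Rps3a2, a copy of Rps3a1 for a small-subunit protein, had 3582 and 3018 counts and 133 and 132 TPM against 87.1 and 84.5 TPM. Rps13-ps1 had 124 and 118 TPM against 137 and 127 TPM. Identity to the parent therefore did not by itself place a member: Gm10123, Rpl28-ps1 and Gm7536 each match their parents at every aligned base.

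The 10 members higher in the index tables were led by Gm7336, the Gapdh copy printed above. It had 184 and 90.5 counts by alignment and 10117 and 9325 by index, a level of 4.18 and 2.42 TPM against 194 and 210 TPM. Oaz1-ps had 39.1 and 34.7 TPM against 197 and 181 TPM. Gm12254 (Rpl24), Gm5812 (the nucleolar methyltransferase Fbl), Gm15920 (Ndufa12, of respiratory complex I), Rps18-ps3 (Rps18), Gm14681 (the nucleolar chaperone Npm1), Gm8741 (Snu13, of the spliceosome), Gm8355 (Hspa8) and Eif4a-ps4 (the helicase Eif4a1) followed, with mean log2 ratios between 1.05 and 1.97. Just short of the 2-fold limit in replicate 1, Gm14044 (Rpl27a) had 64.9 and 57.5 TPM against 113 and 107 TPM. Gm5812 also overlaps an exon of Tulp4 on the opposite strand, so its value is uncertain unless strand was used in counting.

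The class of a member went along with its own sequence and with its length. Without any word of their own, 53.7% of members (36 of 67) were at least 4-fold lower and 37.3% within 2-fold. With up to 10% of such words the shares were 39.7% and 37.0%, with above 10 and up to 30% they were 22.4% and 60.5%, and with above 30% they were 16.2% (6 of 37) and 64.9%. The median ratio of the 4 groups was -5.67, -1.10, -0.34 and -0.13 in replicate 1 and -3.01, -1.22, -0.41 and -0.14 in replicate 2. The groups overlapped widely, and 1 member with above 30% of words of its own was listed at 0 in both index tables.

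**Figure D3:**
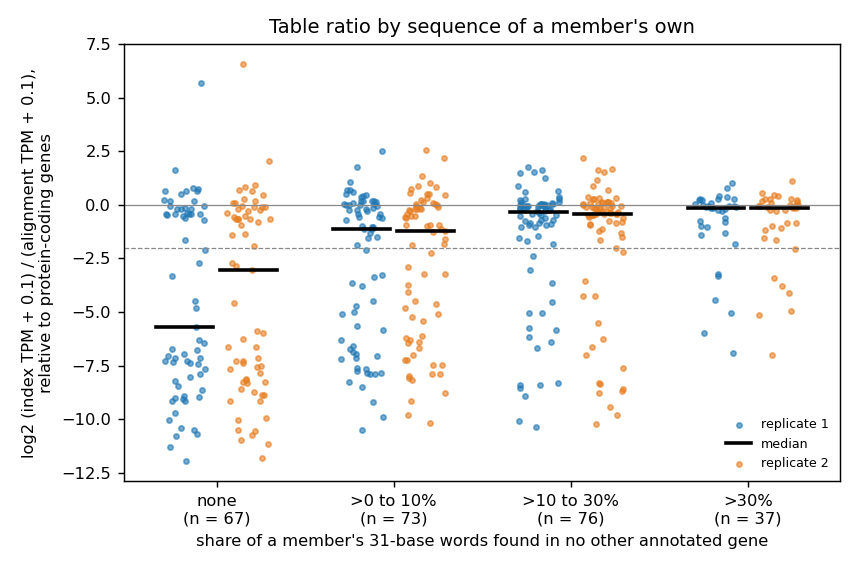
Log2 ratio of index-based to alignment-based TPM, relative to protein-coding genes, for each member in replicate 1 (blue) and replicate 2 (orange), by the share of its 31-base words found in no other annotated gene. Black bars are medians, the dashed line marks a 4-fold lower value, and the medians move from -5.67 and -3.01 without such words to -0.13 and -0.14 above 30%.

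Length moved with the ratio too. All 17 members under 300 bases were at least 4-fold lower, and 37 of 75 with 300 to under 500 bases (49.3%), 20 of 92 with 500 to under 1000 (21.7%) and 14 of 69 with 1000 or more (20.3%) were. The quantifications treat length differently, with 100 bases subtracted from the length in the gene tables and 248 in the index tables to give an effective length, and all 11 members shorter than the latter were listed at 0 in the index tables. Across members, Spearman's rho of the ratio with length was 0.37 and 0.39 and with the share of own words 0.29 and 0.29 in replicates 1 and 2. Among the 161 members of 500 bases or longer the latter was 0.11 and 0.12. These correlations are across genes that share parents and reads, and are a description.

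The members with most sequence of their own were few. Gm14592 (chromosome X), which matches the splicing factor gene Sf3a3 at 82.6% identity, had 100% of its words to itself, 322 and 236 counts, 18.0 and 15.5 TPM by alignment and 14.3 and 12.8 TPM by index. Gm7463 (92.6% own words, parent Prelid3b, a mitochondrial lipid transfer protein) had 37.3 and 45.8 TPM against 32.3 and 39.3 TPM. It lies in a same-strand intron of the steroid reductase gene Akr1d1, which had a mean count of 83646, and the part of reads from that intron was not tested. AC098880.2 (91.5%) had 1.89 and 2.12 TPM against 1.53 and 1.73 TPM. Gm13050, the Eef2 copy printed above (67.3%), had 28.99 and 27.49 TPM against 20.98 and 20.17 TPM. In these 4 the tables lay within 2-fold of each other after centring. By contrast AC134576.3, a copy of the glutamine synthetase gene Glul with 70.2% own words, had 243 and 234 counts by alignment and 3.01 and 4.02 by index, and Gm5835 (Rpl4, 60.9%) had 9.36 and 9.29 TPM against 0.73 and 0.67 TPM. Gm29787 (the actin-binding protein gene Cttn) had 6.52 and 7.25 TPM against 2.83 and 2.88 TPM, and Gm17936 (Cnn3) had 207 and 155 counts by alignment and 265 and 215 by index. Gm17936 lies in a same-strand intron of Abcb4.

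The counts of members and parents were then set side by side for the 81 parents with a member at least 4-fold lower. The median log2 ratio of index to alignment counts of these parents alone was 0.18 and 0.17, and 55 and 52 of them lay above the protein-coding median. For parent and members summed it was 0.04 and 0.04, against 0.11 and 0.10 over protein-coding genes. Over all 81 parents, the members had 52233 and 42054 fewer counts in the index tables and the parents 72303 and 57137 more. A shift by the protein-coding median alone would give 54343 and 44498 of the latter. Without Gapdh, the members of the other parents had 60241 and 49718 fewer counts and the parents 59926 and 47512 more. Here a shift by the protein-coding median alone would give 52994 and 43403. Taken as they stand, loss and gain were unlike over all 81 parents and closer without Gapdh. The shift by the protein-coding median alone would give most of the gain in both cases. Whether the members' lost counts went to the parents was not tested. The summed ratio lay within 0.2 of the protein-coding median for 61 and 62 of the 81 parents, and the ratio of the parent alone for 48 in each animal.

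The cases that follow were chosen after their values were seen and are not the full set of extremes. Rpl27, a large-subunit protein gene, had 368 and 351 counts by alignment while its identical copies Gm11518 and Rpl27-ps3 had 1840 and 1563 each, and by index Rpl27 had 4135 and 3576 while each copy had 6.55 and 9.22. Mrpl23, of the mitochondrial ribosome, went from 53.4 and 93.1 counts to 772 and 660 while its copy went from 667 and 529 to 0. Rps23 went from 1607 and 1578 to 6925 and 5835 while Rps23-ps1 went from 6211 and 4813 to 1295 and 839. Oaz1 moved the other way, from 8807 and 7352 to 5143 and 4469, while Oaz1-ps went from 890 and 672 to 4561 and 3575. Among these 4 the largest move of the sum of parent and copies between the tables was 0.101 on the log2 scale (Mrpl23, replicate 1). The median protein-coding gene moved by 0.106 and 0.104 in replicates 1 and 2. Other sums moved further. That of the histone gene Hist2h2aa1 and its copy moved by 1.65 and 1.36, and that of BC004004 and its copy by -0.98 and -0.86. Gapdh differed from these 4, since both the parent (17736 and 14712 to 30114 and 24337) and the sum of its 6 members (2159 and 1695 to 10167 and 9360) were higher by index. Gm7336 alone held 10117 and 9325 of that sum, and the other 5 fell from 1975 and 1605 counts by alignment to 49.998 and 34.2 by index. Some other parents, such as Eif4a1 and Ywhaz, were also higher by index together with their copies in both animals.

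**Figure D4:**
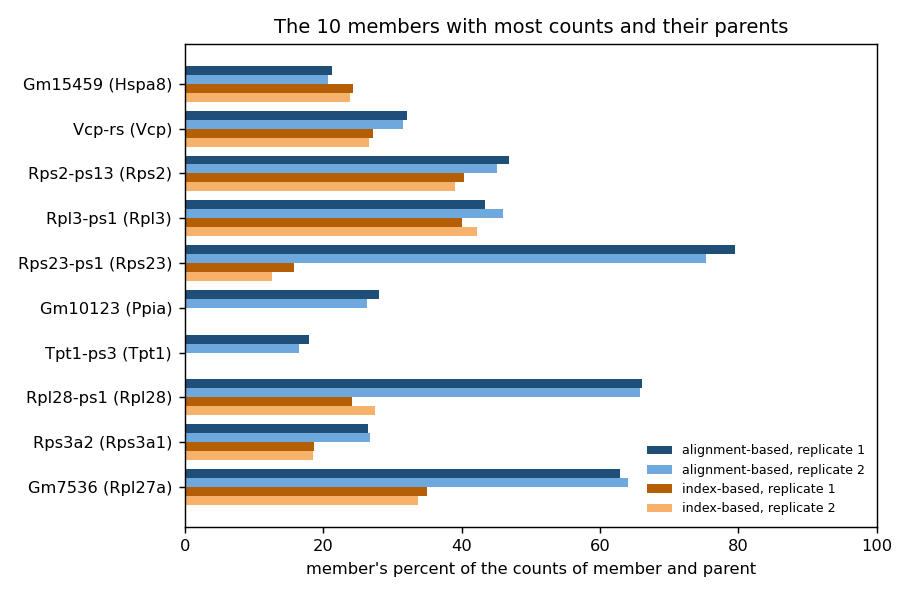
Percent of the counts of member and parent that the member took, for the 10 members with most counts (parent in brackets), in the alignment-based (blue) and index-based (orange) tables of each replicate. Rps23-ps1 took 79.4% and 75.3% by alignment and 15.7% and 12.6% by index, while Gm15459 took 21.3% and 20.7% against 24.3% and 23.9%.

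By family, the ribosomal protein copies had 29 of 76 members at least 4-fold lower and 36 within 2-fold, close to the members as a whole. Respiratory chain copies had 5 of 8 at least 4-fold lower, ubiquitin and proteasome copies 6 of 10 and RNA-binding protein copies 5 of 7. Cytoskeleton copies had 2 of 7 and 5 within 2-fold, including Gm8399, a copy of the gamma-actin gene Actg1, at 38.4 and 40.7 TPM against 18.2 and 19.9 TPM. Gm4735 had 57.6 and 53.3 TPM against 50.9 and 45.7 TPM. Its best match was the enolase gene Eno1b, which itself had only 7.94% of words of its own. Gm4202 (Ywhaz, a 14-3-3 adaptor) had 34.4 and 38.2 TPM against 49.0 and 55.9 TPM, and Gm4204 (the histone chaperone Nap1l1) 18.4 and 19.0 TPM against 17.1 and 17.0 TPM. Gm10052, which matches Hnrnpa1 at every aligned base, had 11.1 and 9.74 TPM against 15.1 and 16.1 TPM. Gm13835, which matches the proteasome subunit gene Psma3, had 18.1 and 19.1 TPM against 3.60 and 2.41 TPM. The families are too small for a difference between them to be read from these counts.

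Members lay on 20 chromosomes, 14 of them on X and none on Y. Of the 253, 166 lay in no other annotated gene, 23 overlapped an exon of another gene (7 on the same strand and 16 on the opposite one), 26 more lay in an intron on the same strand and 38 more only in an intron on the opposite strand. Within same-strand introns 15 of 26 members were within 2-fold and 7 at least 4-fold lower, and among members in no other gene 81 of 166 and 60 were. Sequence identity leaves some members indistinguishable from one another: 9 members share their whole sequence with another member, and the 5 such copies of Rpl35a were each listed with 336 and 259 counts.

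The animals were compared by the log2 ratio of replicate 2 over replicate 1 of TMM-scaled alignment-based counts. Over the members the median was -0.13, against -0.03 over all genes at the count limit, and 67.2% of members were below 0 against 55.7% of all genes. The median over the 201 parents was -0.11. A member was counted as different when the ratio was at least 2-fold and the deposited TPM intervals, which describe estimation within 1 library, did not overlap. By that rule 1 member was higher in replicate 2, where 0.498% of all genes were, and 1 was lower, where 0.696% were. With index-based counts and without the interval criterion 34 members passed 2-fold, 9 of them with a mean of 100 or more index-based counts. The share of all genes passing this looser rule is not given, so the 34 cannot be set against the shares above.

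Hsp25-ps1, a copy of the small heat shock protein gene Hspb1, was the lower one. It had 223 and 53.5 counts, a level of 10.8 and 3.06 TPM, and a log2 ratio of -1.90, and its parent had -1.41. In the index tables its level was 9.52 and 4.86 TPM, in the same direction as by alignment.

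Copies of other chaperone genes also had lower values in replicate 2 without meeting the rule. Gm15459 and Gm8355, both copies of Hspa8, had -0.93 and -0.92, with intervals that did not overlap, beside -0.88 for Hspa8. Gm7816, a copy of the co-chaperone gene Dnaja1, had -1.05 with overlapping intervals, beside -0.70 for its parent. All 9 chaperone copies were below 0, where 67.2% of members were, and the smallest difference was -0.04 for Hspd1-ps3. Hspa8 and Dnaja1 share most of their sequence with these copies, so the values of copy and parent are not independent.

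**Figure D5:**
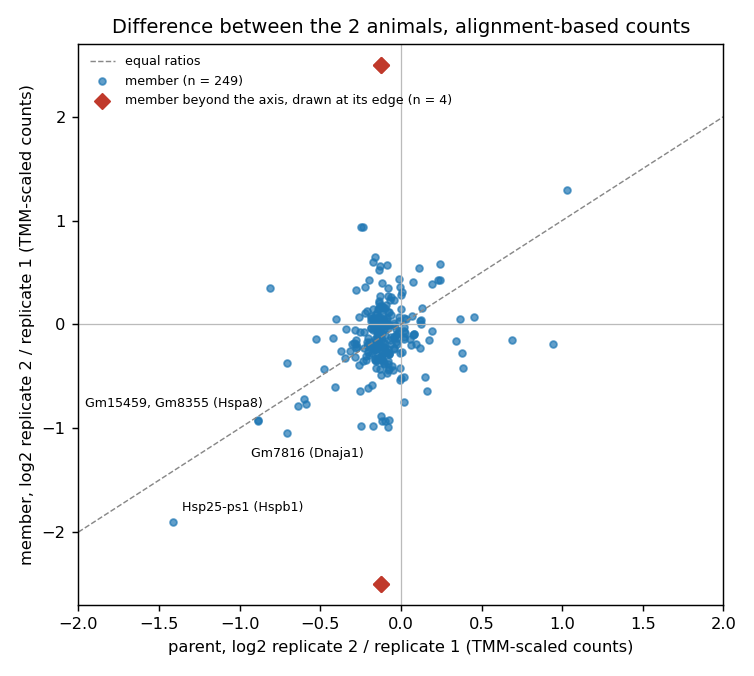
Log2 ratio of replicate 2 over replicate 1 (TMM-scaled alignment-based counts) of each member against that of its parent. The point of Hsp25-ps1 lies at -1.90 beside -1.41 for its parent, and 4 Gapdh copies beyond the axis are drawn at its edges as diamonds, a pair overlapping at each edge.

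The 4 Gapdh copies with the most extreme ratios changed places between the libraries. Gm14760 had 0 and 807 counts and Gm5559 0 and 267, while Gm10359 had 443 and 0 and Gm13394 803 and 1.24. Their deposited TPM intervals overlapped in every case, for Gm14760 from 0.00 to 8.52 TPM in replicate 1 and from 0.00 to 22.7 TPM in replicate 2. Summed over the 6 Gapdh members the counts were 2159 and 1695, and Gapdh itself had a log2 ratio of -0.13. These 4 match Gapdh at 99.9% identity or more and had at most 3.19% of words of their own, and the index tables listed 3 of them at 0 in both libraries.

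Across members, the ratio of copy and parent had a Spearman's rho of 0.18 and a Pearson's r of 0.11 (253 members that share parents, given as a description). The ratios of 219 members lay within 0.5 of their parent's, with a median absolute difference of 0.19. The deposited intervals did not overlap between the animals for 19 members (7.51%), against 27.4% of all genes at the count limit.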

How the data were processed

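Gene tables were deposited with expected counts per gene, estimated by the authors from transcriptome alignments and not normalized, and with TPM scaled over all features, per the file headers. Index-based transcript tables were deposited with estimated counts and TPM and were summed here per gene. Assembly (mm10) and annotation (GENCODE M21) are as deposited with the libraries; the sources used here do not name the programs. Deposited TPM bounds describe error within 1 library; their level is not given.

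Transcript types came from the index tables; 86 of 55536 genes had no index row. Parents were the best protein-coding hits by bit score (BLAST 2.17.0, discontiguous megablast, e-value 1e-10). TMM factors (1.05 and 0.951) were taken from rounded counts with edgeR 4.0.16 in R 4.3.3, with DESeq2 1.42.0 as alternative, and 0.5 was added before log2 ratios. The limit of detection was 3 counts. Intervals and limits cover counting error only. All else ran in Python 3.11.15 (pandas 2.3.3, numpy 2.4.6, matplotlib 3.10.9, scipy 1.17.1). Scripts were tested on simulated data: for replicate 2 over replicate 1, 100% of 200 genes changed 4-fold among 12645 were recovered and 0.201% of unchanged genes passed 2-fold.

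Members named, apart from 2 not reported here, are the 10 highest by count and by index TPM, the 10 at each end of the table ratio, the 10 with most words of their own, those called between animals, those beside the count limit, the 2 highest per family, and their parents. Others (Gm11518, Rpl27-ps3, the Rpl35a and Mrpl23 copies, Hist2h2aa1, the further Gapdh copies, Gm7816, Gm13050 as a sequence) were chosen after values were seen. Members and lists were chosen with earlier results of these data known. Alternatives were other limits, pseudocounts, scalings, word lengths and tables, and leaving out each library.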

Additional observations from a re-analysis of the deposited data

How the results depend on the processing

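The number of members stayed within 1.5 times of 253 under every alternative tried (180 to 322), and so did the 88 members at least 4-fold lower and the 122 within 2-fold, unless the index table chose the genes. The median table ratio, -0.67 as the mean of both animals, was -0.62 with a pseudocount of 1, -0.88 without centring, -1.11 on counts and -0.33 over members of 500 bases or longer. With 1 library left out it ranged from -0.76 to -0.69. In alternatives chosen after seeing the data it was -0.31 when either table chose the genes. It reversed to 0.11 when the index table chose them. Of the genes so chosen 0 were at least 4-fold lower, which is partly set by the choice. The 2 members called between the animals became 4 on library size alone and 7 without the interval criterion. They became 4 on deposited TPM and 34 on index-based counts. No share of all genes is given beside these counts, and the cause was not tested. The members' share of counts, 0.496% on average, was 0.328% in the index tables. The median identity of 99.5% was 99.4% with parents chosen by aligned length. The median share of own words, 7.89% for 31 bases, was 5.88% for 25, 13.4% for 50 and 19.2% for 75 bases. The 23 members over another gene's exon became 11 when at least 50% of the member had to be covered. No paired analysis was possible because both libraries belong to 1 group. For a member listed at 0, the limit of 3 counts covers counting error only. It does not cover how reads shared with the parent were divided. A p-value is not possible with 2 animals.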

Other observations

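The index tables gave 49 processed pseudogenes a mean of at least 100 estimated counts that the gene tables did not, 13 of them at 0 in both gene tables. Gm19220 was the highest, with 18336 and 6479 index-based counts (623 and 258 TPM) and 0 in both gene tables, although 99.4% of its 31-base words are found in no other annotated gene. Of the 49, 17 had D10Wsu102e as their best match. Others of like length matched the gene Vmn2r53 best, such as Gm48498 (3841 bases, 93.8% identity), so the best match may not be the source. Together the 17 had 4431 and 5664 index-based counts and 15 and 17 alignment-based counts. None of them had more than 4 and 4.8 by alignment. D10Wsu102e itself had 1225 and 1333 counts by alignment and 5071 and 6265 by index. This gene and the 17 were thus both higher by index, as with Gapdh. Rpl36a-ps3, a copy that matches Rpl36al at 99.7% identity, had 17.5 and 0 counts by alignment and 634 and 531 by index. The cause of these differences was not tested.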
